A study of Danio rerio with 13 samples.

Results

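The Wnt pathway genes of the deposited table were examined in sorted zebrafish pharyngeal arch cells. Members were chosen by name only: the Wnt ligands, the R-spondins, the Frizzled receptors, the receptors and co-receptors Lrp5, Lrp6, Ror1, Ror2, Ryk and Lgr4 to Lgr6, the secreted antagonists of the Sfrp, Dkk, Notum and Wif families, the intracellular members named *ctnnb*, *axin* or *apc*, and the TCF/LEF factors. The rule found 72 of 27911 genes, with 71 distinct names because *wnt8a* stands on 2 rows. *ctnnbl1* was taken by its name alone, as its product is a splicing-associated protein and not a Wnt pathway component.

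All embryos carried the *fli1a*:EGFP and *sox10*:DsRed transgenes, and cells positive for both were sorted as arch neural crest-derived cells. The 13 libraries, 1 for each condition, were made from perturbed double-positive cells at 36 hpf (*edn1*-/- mutants, *hsp70I*:Gal4; *UAS*:Edn1, *jag1b*-/- mutants, wild types treated with DBZ, and *hsp70I*:Gal4; *UAS*:NICD), from control double-positive cells at 36 hpf (*jag1b*+/+ siblings, *hsp70I*:Gal4 alone, *UAS*:Edn1 alone and wild types), from wild-type double-positive cells at 20 and 28 hpf, and from wild-type cells at 36 hpf that were positive for *fli1a*:EGFP alone or *sox10*:DsRed alone (the single-positive *fli1a*-only and *sox10*-only cells). *edn1* encodes the ventral arch signal Endothelin1, *jag1b* a Notch ligand of the dorsal arch, and NICD is the active intracellular domain of Notch1a. DBZ is a γ-secretase inhibitor that blocks Notch receptor cleavage, and it was applied at 10 μM from 24 to 36 hpf. The paper states that such inhibitors also affect other signaling pathways, and used its DBZ data only to refine gene lists. Both overexpression lines and both of their single-transgene controls received a heat shock of 40 °C between 20 and 24 hpf, and *hsp70I*, a heat-shock promoter, drove Gal4 throughout the embryo and not in arch cells alone. The *jag1b* embryos and the Edn1 and NICD overexpression embryos were genotyped from tail biopsies at 24 hpf. The *edn1* mutants were recognized by their shape, and embryos for the 36 hpf sorts were held at 22 °C after 27 hpf. Each library came from many pooled embryos.

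In the canonical Wnt pathway a secreted Wnt binds a Frizzled receptor together with Lrp5 or Lrp6, which halts the destruction complex built on Axin and Apc, so that β-catenin accumulates and works with TCF/LEF factors in the nucleus. Wnts such as Wnt5b and Wnt11 also act without β-catenin through Frizzled, Ror and Ryk receptors, where they control cell movement and polarity. R-spondins, bound by Lgr receptors, raise Frizzled and Lrp levels at the cell surface. Sfrp and Wif proteins bind Wnts, Dkk1 and Dkk2 bind Lrp co-receptors, and Notum removes a lipid that Wnts need. *dkk3a* and *dkk3b* were placed among the antagonists by name alone. In vertebrate embryos Wnt signals act in neural crest induction, pigment cell fate and outgrowth and patterning of the facial primordia.

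Levels are given as RPKM, which scales reads by transcript length and by library total, and a fold change is the ratio of RPKM between 2 libraries. A gene was called higher or lower at 1.5-fold or more, provided that its RPKM averaged at least 1 over the 13 libraries and was above 0 in both libraries compared. Of the members, 41 passed this filter and 31 did not, and 11690 of all genes passed (41.9%). Shares of all genes were counted for the main comparisons only, not with another control library or after rescaling. With 1 library in each condition there is no replicate check and no p-value. The 4 double-positive control libraries at 36 hpf give the only spread between unperturbed libraries, so perturbed libraries were also asked to lie outside the range of those 4.

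Depth, recovered from the steps between RPKM values, was 0.687 of that of the wild-type 36 hpf library in *edn1*-/- mutants and 1.23 times it in *hsp70I*:Gal4 controls, the lowest and highest of the 13. Where a member's whole reads could be recovered (23 of the 41), a 95% counting interval of its fold change is given, which is an exact Clopper-Pearson interval, covers counting error only and compares libraries, not conditions. A set of 4 libraries, those of *edn1*-/- mutants, wild types at 36 hpf and both single-positive populations, stood apart: 147 genes lay at least 2-fold below and 36 at least 2-fold above all of the other 9. With no fold required, the 3 members *tcf7l1a*, *ctnnb1* and *fzd3a* were lower in each of these 4 libraries than in any of the other 9. The share of all genes under this looser rule was not counted, and none of the 3 had a 2-fold gap. *ctnnb1*, for instance, had at most 189 RPKM in the 4 libraries and at least 207 in the other 9. The labels name 2 kinds of sequencer but not which library ran on which, and the part of this division in the results was not tested. Of the comparisons below, 36 against 28 hpf, DBZ against wild types and *jag1b*+/+ against wild types cross it. Markers of other cells also moved between libraries. The summed RPKM of 5 pigment cell genes was 46.1 at 28 hpf and 1.37 at 36 hpf in wild types, and that of 6 muscle and heart genes was 15.6 at 28 hpf and 324 at 36 hpf. At 36 hpf this sum was carried by *mylpfa* (168 RPKM) and *actc1b* (155), while the heart genes *myh6* and *tnnt2a* were listed at 0.

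Ligands were the least detected role and intracellular members the most abundant. Only 4 of the 25 Wnt ligand rows passed the filter, against 2 of 4 R-spondins, 9 of 12 Frizzled receptors, 5 of 7 other receptors, 9 of 12 secreted antagonists, all 7 intracellular members and all 5 TCF/LEF factors. Of the ligand rows, 17 did not reach an RPKM of 1 in any of the 11 double-positive libraries, and 15 of these not in either single-positive library. *rspo1*, *rspo4*, *fzd3b*, *fzd9a*, *sfrp1b* and *notum2* likewise stayed under 1 RPKM in every library.

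Arch cells held transcripts of few Wnt ligands in quantity. *wnt11r* and *wnt5b*, which encode ligands known mainly for β-catenin-independent signaling, stood at 24.2 and 15.3 RPKM in wild-type double-positive cells at 36 hpf. *wnt16* and *wnt11* were at 0.945 and 0.717 RPKM there. Among the 21 ligand rows under the filter, *wnt2bb* was the highest in this library, with 2.0 RPKM, against 2.07 in *fli1a*-only cells and 0.802 in *sox10*-only cells. *wnt9a* ranged from 0.274 RPKM in *edn1*-/- mutants to 1.38 with DBZ among the double-positive libraries at 36 hpf. *wnt10a*, a canonical ligand gene, was at 1.24 RPKM with Edn1 overexpression and 0.0261 with NICD, against 0.883 in *hsp70I*:Gal4 controls, and the other 3 controls ranged from 0.222 in wild types to 1.17 in *jag1b*+/+ siblings. *wnt1*, *wnt3a* and *wnt8b* did not exceed 0.530 RPKM in any library, and the *wnt8a* rows did not exceed 0.0489.

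Receptors were far better represented than ligands. *fzd7a*, a Frizzled with both canonical and polarity functions, was at 127 RPKM in wild-type double-positive cells at 36 hpf, followed by its paralog *fzd7b* at 68.1 and by *fzd2* at 45.5. The summed RPKM of the 12 Frizzled receptors was 290 in that library, against 46.2 for the 25 ligand rows. *ror2*, *ryk* and *ror1*, receptors of non-canonical Wnts, were at 18.0, 14.3 and 11.3 RPKM. The Wnt co-receptor gene *lrp5* was at 6.55 RPKM and its relative *lrp6* at 0.844, and the R-spondin receptor gene *lgr4* at 2.29.

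Among antagonists, *sfrp1a* (38.9 RPKM), *sfrp2* (28.1) and *notum1a* (12.2) led in the wild-type 36 hpf library. β-catenin was encoded by *ctnnb1* at 189 RPKM and *ctnnb2* at 25.1, and the β-catenin inhibitor *ctnnbip1* was at 54.4 RPKM. *axin1* and *axin2*, scaffolds of the destruction complex, were at 20.8 and 24.8 RPKM and *apc* at 3.42. The most abundant TCF/LEF genes were *tcf7l1a* (18.9 RPKM), which encodes a factor known mostly as a repressor, *lef1* (11 RPKM), known mostly as an activator, and *tcf7l1b* (7.77).

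The comparison of sorted populations asked which of these genes were enriched in arch cells. Double-positive cells had higher levels than *fli1a*-only cells for 17 of the 41 members (41.5%) and lower levels for 5, while 17.8% of all genes tested were higher and 11.7% lower. Against *sox10*-only cells, 21 members (51.2%) were higher and 8 lower, while 22.8% of all genes were higher and 16.4% lower. The median fold change over the members was 1.42 against *fli1a*-only cells (all genes 1.16) and 1.64 against *sox10*-only cells (all genes 1.11). After rescaling by the median ratio of all genes, 14 members were higher and 6 lower than in *fli1a*-only cells. Against *sox10*-only cells the rescaled counts were 21 higher and 8 lower. At 3 RPKM or more in double-positive cells and 1.5-fold enrichment over both single-positive populations, 15 of 29 members qualified (51.7%), against 719 of 7530 genes (9.55%). Both shares were counted on RPKM as deposited and not after rescaling. The 3 libraries compared here were all among those that stood apart, so neither comparison crosses that division. These are bulk measurements, in which fewer cells of a type and less RNA per cell cannot be told apart.

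The 15 arch-enriched members were mostly receptors. They included 5 Frizzled genes (*fzd4*, *fzd7a*, *fzd7b*, *fzd8a* and *fzd9b*), 4 other receptor genes (*lrp5*, *ror1*, *ror2* and *ryk*), the R-spondins *rspo2* and *rspo3*, the antagonists *sfrp1a* and *sfrp2*, the ligand *wnt5b* and the destruction complex gene *axin2*. Of these, *axin2* and *fzd9b* qualified only as deposited. After rescaling by the median ratio of all genes, neither was past 1.5-fold over *fli1a*-only cells. *wnt5b* was at 15.3 RPKM in double-positive cells, against 6.09 in *fli1a*-only and 1.79 in *sox10*-only cells. That is 2.51-fold (95% counting interval 2.27 to 2.77) and 8.55-fold (7.31 to 10.1) higher in double-positive cells. Its receptor *ror2* had a like pattern, with 18.0 RPKM in double-positive cells, 6.45 in *fli1a*-only cells and 3.16 in *sox10*-only cells. *sfrp2* was 10.3-fold higher (8.78 to 12.3) than in *sox10*-only cells, at 28.1 against 2.72 RPKM, but only 1.68-fold higher (1.55 to 1.83) than in *fli1a*-only cells, which had 16.7 RPKM. *rspo3* was at 16.8 RPKM in double-positive cells, against 5.99 in *fli1a*-only and 6.66 in *sox10*-only cells.

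**Figure D1:**
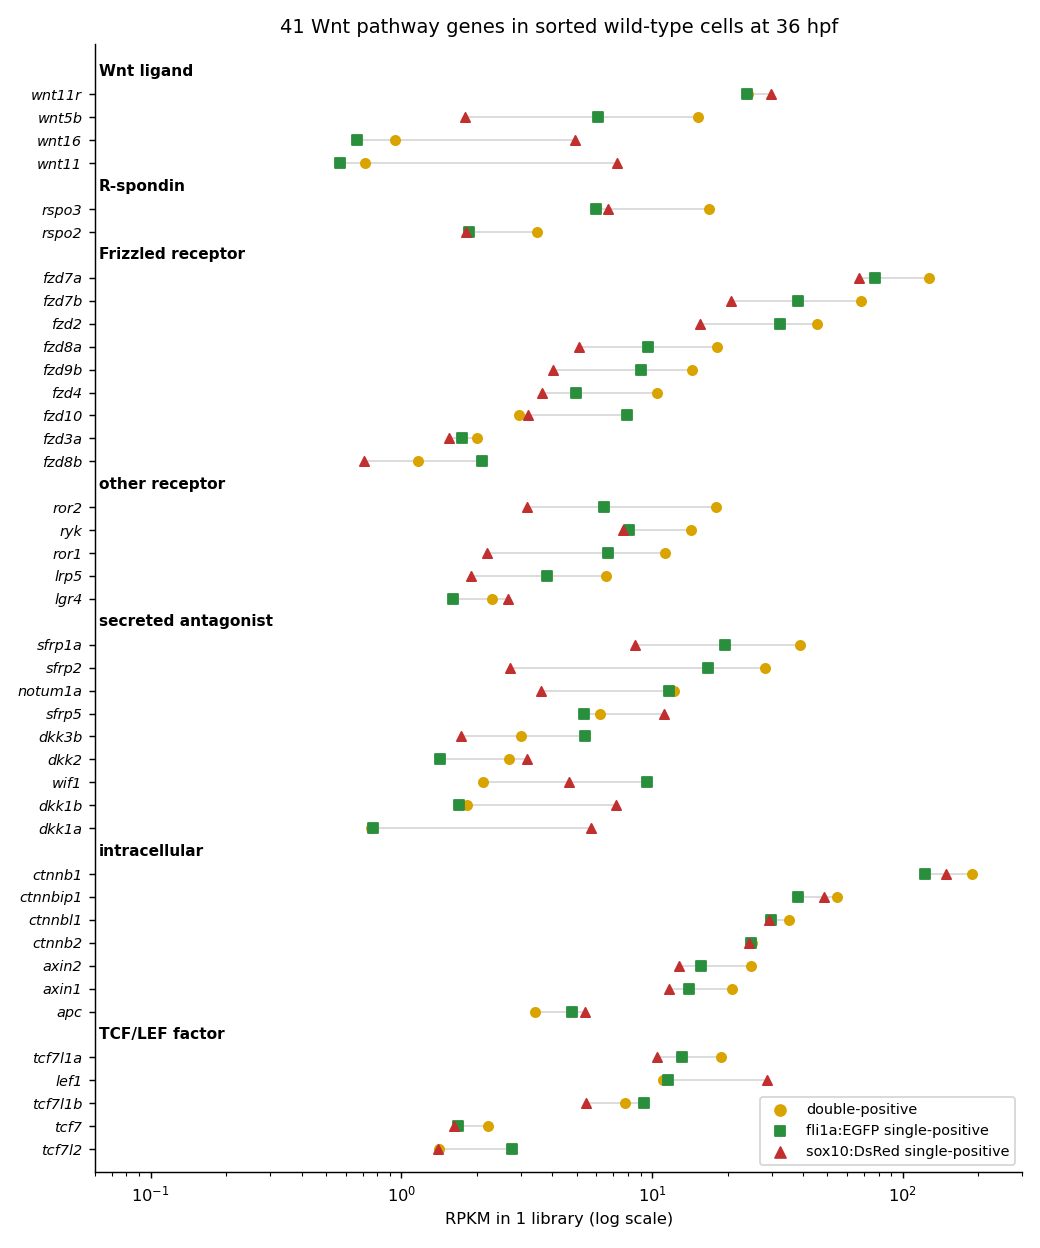
RPKM (log axis) of the 41 members with a mean RPKM of at least 1, grouped by role, in 1 library each of wild-type double-positive (yellow circles), *fli1a*-only (green squares) and *sox10*-only cells (red triangles) at 36 hpf; grey lines join the lowest and highest. Most Frizzled and other receptor genes are highest in double-positive cells, whereas *wnt11*, *wnt16*, *dkk1a*, *dkk1b* and *lef1* are highest in *sox10*-only cells.

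Other members were lower in arch cells than in their single-positive neighbors. *wnt11* was at 0.717 RPKM in double-positive cells and 7.26 in *sox10*-only cells, 10.1-fold lower (7.99 to 13). *dkk1a*, *wnt16* and *dkk1b* were 7.57-fold, 5.23-fold and 3.92-fold lower than in that population, where *dkk1a* had 5.73 RPKM and only through which it passed the filter (the other 12 libraries averaged 0.651), and *lef1* was 2.61-fold lower (11 against 28.8 RPKM). Against *fli1a*-only cells, the largest differences in this direction were those of *wif1* (2.11 against 9.56 RPKM, 4.53-fold lower, 3.88 to 5.32), *fzd10* (2.95 against 7.94 RPKM, 2.69-fold lower) and *tcf7l2* (1.41 against 2.77 RPKM, 1.97-fold lower). Members under the filter differed as well: *fzd5* was at 0.103 RPKM in double-positive and 5.92 in *fli1a*-only cells, and *wnt7aa*, *wnt4a* and *wnt2* at 0.155, 0.629 and 0.0263 RPKM in double-positive cells but at 5.37, 3.18 and 2.66 RPKM in *sox10*-only cells. The marker sums separated the populations too. Pigment cell genes summed to 1.37 RPKM in double-positive, 2.19 in *fli1a*-only and 377 in *sox10*-only cells. In the same order, 4 ear genes summed to 13.6, 8.22 and 245 RPKM and 6 vessel genes to 7.65, 123 and 0.883 RPKM. Neuron and glia genes summed to 5.90, 25.1 and 197 RPKM, and epidermis and epithelium genes to 23.5, 28.5 and 189 RPKM. The rows of 7 blood genes summed to 133, 62663 and 73.8 RPKM, and all genes of the *fli1a*-only library to 311470 RPKM. The part of these markers in the levels and fold changes of the members was not tested.

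Across stages, the pathway was mostly higher at 28 than at 20 hpf. Of the 41 members, 21 were higher at 28 hpf (51.2%) and 1, *tcf7*, was lower, while 20.3% of all genes were higher and 11% lower. The median fold change was 1.54 over the members and 1.07 over all genes. After rescaling by the median ratio of all genes, 17 members were higher and 1 lower. Both libraries lie on the same side of the division described above. Markers of other cells differed between these stages too. The rows of 7 blood genes summed to 657 RPKM at 20 hpf and 3795 at 28 hpf. In the same order, 5 macrophage and neutrophil genes summed to 239 and 806 RPKM and the 9 arch genes to 467 and 907 RPKM. Of the macrophage and neutrophil genes, *lyz* (18.9 and 645 RPKM) and *mpx* (1.13 and 38.3) were higher at 28 hpf. *mfap4* (84.2 and 57.3 RPKM), *coro1a* (83.1 and 51.9) and *spi1b* (51.8 and 13.6) were lower. The part of all these markers in the stage differences of the members was not tested.

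Of the secreted antagonists, 7 of 9 were higher at 28 hpf, with a median fold change of 2.64. *notum1a*, the Wnt-inactivating enzyme, was at 0.569 RPKM at 20 hpf and 5.89 at 28 hpf, a 10.4-fold difference (7.82 to 14.0). *dkk1b* was at 0.0861 and 0.599 RPKM at these stages (6.96-fold, 2.72 to 22.8, and 3.76-fold with a pseudocount of 0.1), *dkk2* at 0.583 and 3.19 (5.47-fold, 3.89 to 7.87) and *sfrp1a* at 3.10 and 10.6 RPKM (3.42-fold). *sfrp5* and *dkk3b* were not past 1.5-fold, and *sfrp5* had 11.4 RPKM at 20 hpf, 8.45 at 28 hpf and 6.21 at 36 hpf.

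Receptors followed the same direction, with 5 of 9 Frizzled and 4 of 5 other receptor genes higher at 28 hpf and none lower. Of the latter, *ryk* (7.90 RPKM at 20 hpf and 12.6 at 28 hpf) and *lgr4* (1.87 and 2.97) were not past 1.5-fold after median ratio rescaling. *fzd8b* was at 0.244 RPKM at 20 hpf and 1.83 at 28 hpf (7.48-fold, 5.13 to 11.3), and *fzd9b* at 0.947 and 5.40 RPKM (5.70-fold, 4.58 to 7.16). The largest ligand difference was that of *wnt16*, at 0.171 and 1.03 RPKM (6.02-fold, 3.64 to 10.5), whereas *wnt5b* was past 1.5-fold between neither pair of stages, at 13.3, 12.5 and 15.3 RPKM at 20, 28 and 36 hpf. *axin2* was the only intracellular member past 1.5-fold, at 12.1 RPKM at 20 hpf and 25.0 at 28 hpf (2.07-fold). The other intracellular members had fold changes on both sides of 1, and the role's median was 0.967. *tcf7*, a TCF/LEF factor, was 1.87-fold lower (1.49 to 2.37), at 2.83 RPKM at 20 hpf and 1.51 at 28 hpf.

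Between 28 and 36 hpf the members divided: 9 of 41 were higher at 36 hpf (22%) and 5 lower (12.2%), while 15.2% of all genes were higher and 24.6% lower. After rescaling by the median ratio of all genes, 10 were higher and 2 lower. Blood rows summed to 3795 RPKM at 28 hpf and 133 at 36 hpf, and macrophage and neutrophil genes to 806 and 23.6 RPKM, and their part in these differences was not tested. R-spondins and antagonists made up most of those that were higher. *rspo2* was at 0.222, 1.2 and 3.47 RPKM and *rspo3* at 5.32, 5.70 and 16.8 RPKM at 20, 28 and 36 hpf, so that *rspo2* was higher at each later stage and *rspo3* only at the last. *sfrp1a* reached 38.9 RPKM at 36 hpf, 3.66-fold over 28 hpf, *dkk3b* 3.00 RPKM (3.48-fold, 2.52 to 4.88) and *dkk1b* 1.83 RPKM (3.05-fold, 2.07 to 4.61). *fzd9b* continued upward to 14.4 RPKM (2.67-fold, 2.42 to 2.96) and *notum1a* to 12.2 RPKM (2.07-fold, 1.87 to 2.29).

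The 5 members that were lower at 36 hpf depended on the 36 hpf library. With the *jag1b*+/+ siblings, which lie on the same side of the division as the 28 hpf library, in place of the wild types, 8 members were higher and 2, *sfrp5* and *wif1*, lower, and none of *wnt11*, *tcf7l1a*, *fzd3a*, *fzd8b* and *ctnnb1* was 1.5-fold lower. The share of all genes was not counted with the sibling library. *wnt11* was at 2.42 RPKM at 28 hpf, 0.717 in wild types at 36 hpf and 2.53 in *jag1b*+/+ siblings, and *tcf7l1a* at 48.1, 18.9 and 34.5 RPKM in the same libraries. *fzd8b* was at 1.83, 1.16 and 2.49 RPKM, so that its direction turned. The calls of *fzd9b*, *rspo2*, *rspo3*, *sfrp1a*, *dkk1b* and *dkk3b* were also made with the sibling library, at 1.51-fold (*rspo3*) to 6.30-fold (*dkk1b*), while those of *notum1a*, *fzd2* and *tcf7l1b* were not.

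**Figure D2:**
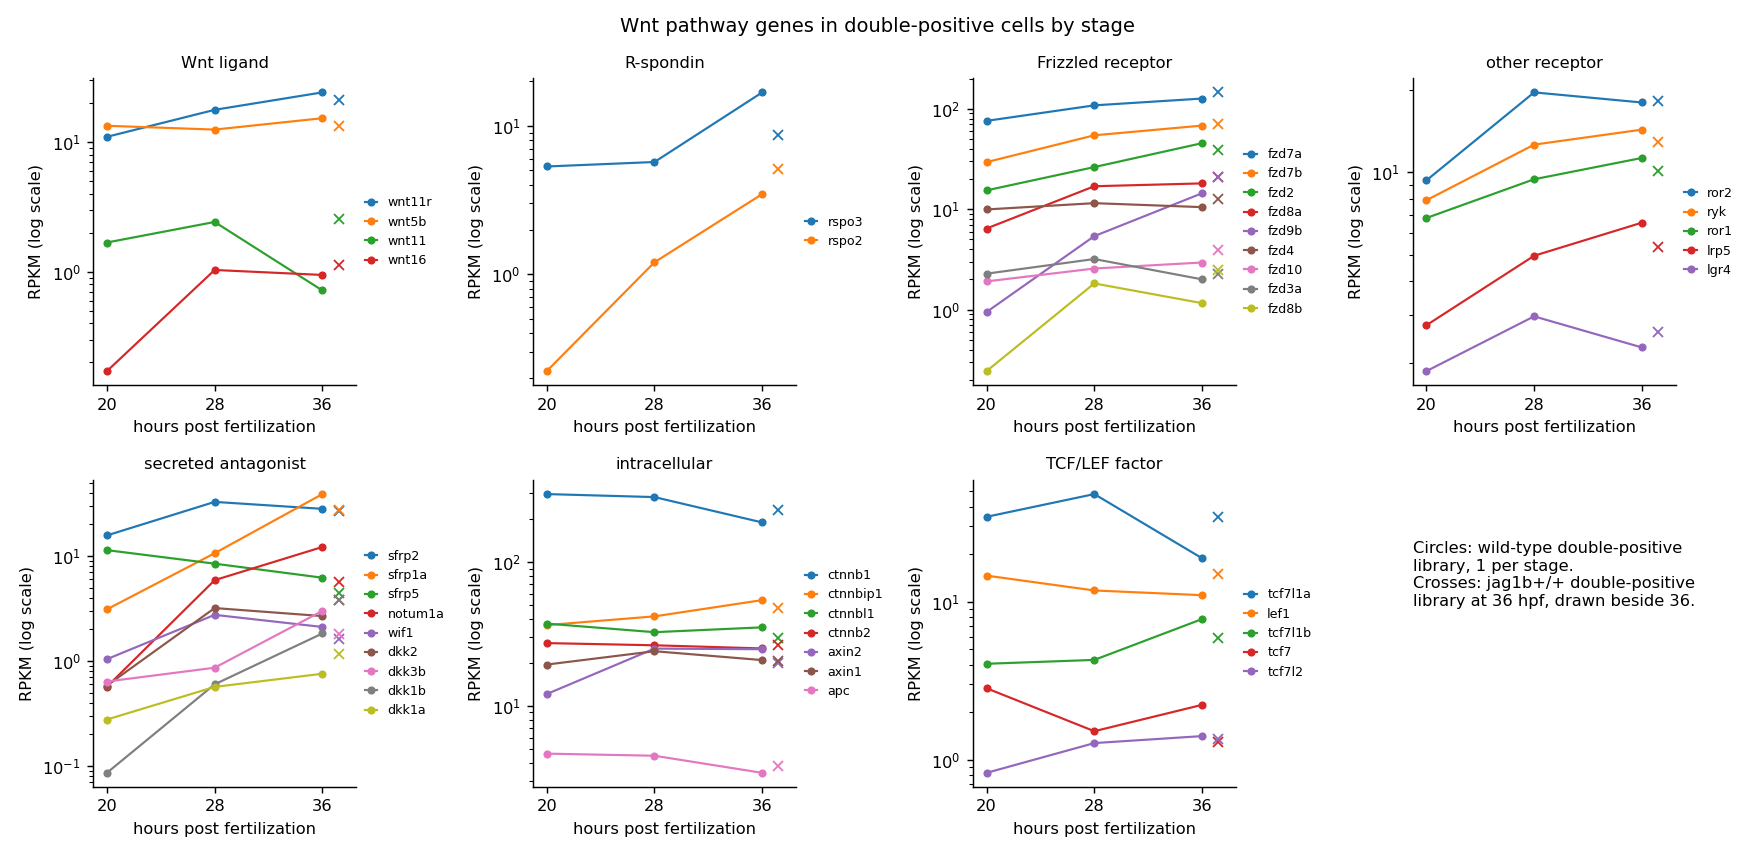
RPKM (log axis) of the 41 members by role in wild-type double-positive cells at 20, 28 and 36 hpf (circles, 1 library per stage) and in *jag1b*+/+ double-positive cells at 36 hpf (crosses, drawn beside 36). Most antagonist and Frizzled genes climb between 20 and 28 hpf, and the crosses of *wnt11*, *fzd8b* and *tcf7l1a* lie well above their 36 hpf circles.

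Before the perturbations, the controls themselves were set against each other. The *jag1b*+/+ siblings had higher levels than wild types at 36 hpf for 5 members and lower levels for 4, while 13.2% of all genes were higher and 17.4% lower. After rescaling by the median ratio, 8 members were higher and 4 lower. *wnt11* differed most, at 2.53 against 0.717 RPKM (3.53-fold, 2.73 to 4.60), and *notum1a* was 2.16-fold lower (1.95 to 2.40) in the siblings. The heat-shocked *UAS*:Edn1 controls had higher levels than *hsp70I*:Gal4 controls for *lgr4* and *notum1a*, and lower levels for 0 members, while 8.66% of all genes were higher and 7.82% lower. *notum1a*, with 5.63 to 12.2 RPKM over the 4 controls, and *wnt11*, with 0.717 to 2.53, were therefore among the members with a wide control range. *fzd8a*, with 18.1 to 20.8 RPKM, and *wnt11r*, with 20.2 to 24.2, had narrow ones.

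**Figure D3:**
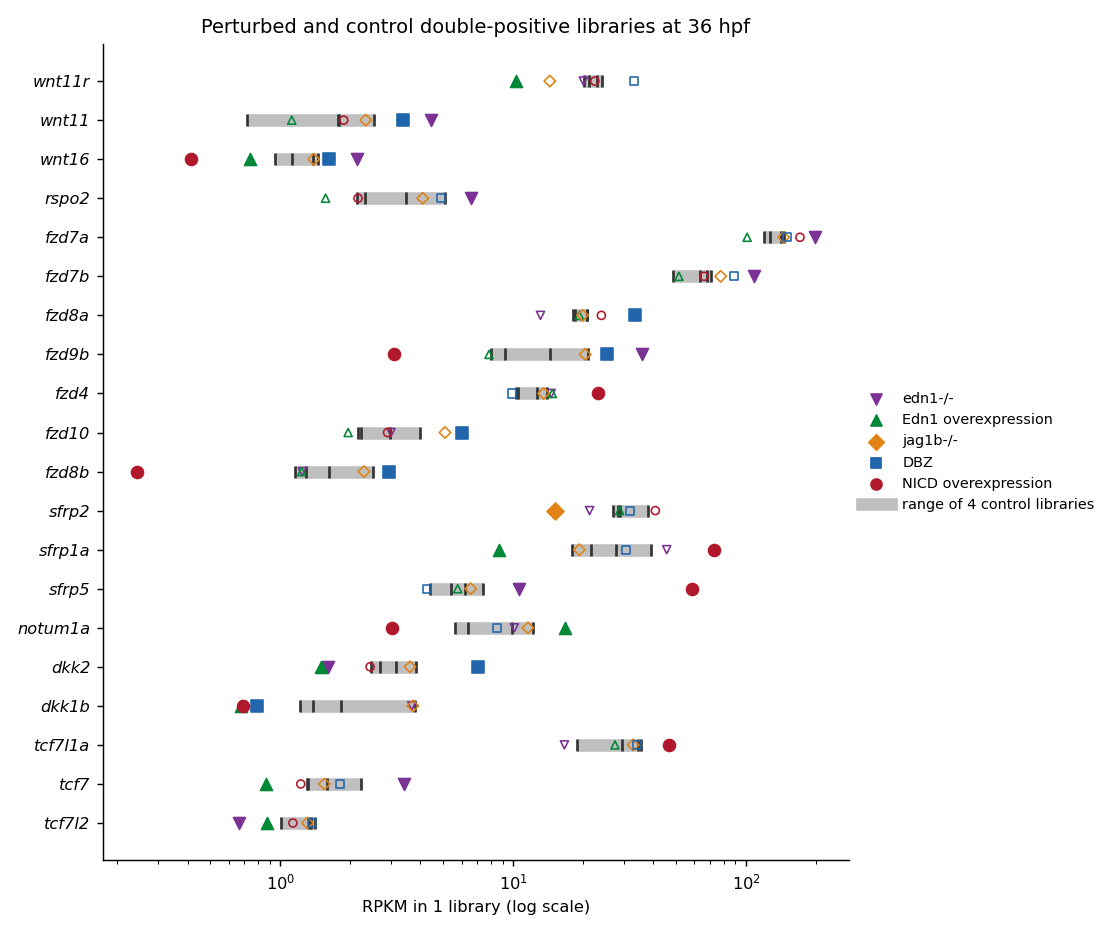
RPKM (log axis) of the 20 members that were 1.5-fold from their own control and outside the 4 control libraries (grey bar, ticks for each library) in at least 1 perturbation at 36 hpf. Large filled symbols mark the perturbed libraries that met both criteria and small open symbols those that did not; NICD moves *sfrp5* and *sfrp1a* far above and *fzd8b* and *fzd9b* far below the controls.

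Members were called in *edn1*-/- mutants no more often than genes in general. At 1.5-fold, 9 of 41 members were higher (22%) and 3 lower, while 24.7% of all genes were higher and 10.9% lower. With the control range added, 8 members were higher and 2 lower, while 20.2% of all genes were higher and 8.14% lower. The members' shares thus lay near or below those of all genes, whose median fold change in this comparison was 1.17. After rescaling by the median ratio of all genes, 6 members were higher and 4 lower, and outside the control range 5 were higher and 3 lower. *fzd7a*, *fzd7b* and *tcf7*, at 1.38-fold, 1.41-fold and 1.36-fold, were then no longer past 1.5-fold. Markers of other cells also differed in this comparison. Muscle and heart genes summed to 79.6 RPKM in mutants and 324 in wild types. In the same order, blood rows summed to 13.9 and 133 RPKM and vessel genes to 16.0 and 7.65 RPKM. *kdrl* made up 13.8 and 5.44 RPKM of the vessel sums, while *cdh5* (1.38 and 1.59) and *tie1* (0.199 and 0.288) were lower in mutants. *etv2*, *pecam1* and *tek* were higher in mutants, at 0.497 RPKM or less. The part of all these markers in the differences of the members was not tested.

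*wnt11* had the highest fold change, at 4.43 RPKM in *edn1*-/- mutants against 0.717 in wild types (6.18-fold, 4.81 to 8.03), and it was 1.75-fold higher than in *jag1b*+/+ siblings. *fzd9b* was at 35.8 RPKM in mutants and 14.4 in wild types (2.48-fold, 2.32 to 2.65), above each of the other 12 libraries. *wnt16* was at 2.13 RPKM in mutants against 0.945 in wild types (2.25-fold, 1.74 to 2.93), and the R-spondin *rspo2* at 6.56 against 3.47 (1.89-fold, 1.66 to 2.15). *sfrp5* was at 10.6 against 6.21 RPKM (1.71-fold) and *tcf7* at 3.41 against 2.22 (1.53-fold, 1.24 to 1.90, and 1.36-fold after rescaling). Both members below the control range were regulators: the Wnt antagonist or modulator *dkk2* was 1.68-fold lower (1.27 to 2.22), at 1.60 against 2.68 RPKM, and the TCF gene *tcf7l2* 2.12-fold lower (1.71 to 2.65), at 0.664 against 1.41 RPKM. *dkk1b*, at 3.67 RPKM in mutants against 1.83 in wild types, was past 1.5-fold but within the controls, since the siblings had 3.78 RPKM. With the siblings as control, *rspo2* (1.29-fold) and *fzd7a* (1.35-fold) were not past 1.5-fold. Without the wild-type library, 12 members were higher and 5 lower than the siblings and outside the 3 other controls, a comparison that crosses the division between libraries. The share of all genes was not counted for it.

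With Edn1 overexpression more members were called lower than higher, most of them at low RPKM. One member was higher than in *hsp70I*:Gal4 controls and 8 of 41 were lower (19.5%), while 5.07% of all genes were higher and 8.52% lower. Outside the control range, 1 was higher and 7 lower (17.1%), while 2.85% of all genes were higher and 4.28% lower. No Frizzled, other receptor or intracellular member passed 1.5-fold against *hsp70I*:Gal4 controls. Against *UAS*:Edn1 controls 1 member was higher and 11 lower, among them the receptor gene *ror1* (7.03 against 11.1 RPKM, 1.58-fold lower). For that control the share of all genes was not counted. Blood rows summed to 125 RPKM with Edn1, against 1418 in *hsp70I*:Gal4 and 208 in *UAS*:Edn1 controls, and macrophage and neutrophil genes to 7.45 RPKM, against 44.2 and 15.5. Their part in the differences of the members was not tested.

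*notum1a* was the member that was higher, at 16.6 RPKM with Edn1 against 6.43 in *hsp70I*:Gal4 controls (2.59-fold, 2.37 to 2.83). The *UAS*:Edn1 controls had 9.91 RPKM, over which the fold change was 1.68. *wnt11r*, the most abundant ligand gene, was at 10.3 RPKM with Edn1 against 22.9 in *hsp70I*:Gal4 controls (2.23-fold lower, 2.08 to 2.40), and the lowest of the 4 controls had 20.2 RPKM. *wnt16* was 1.96-fold lower (1.49 to 2.61), at 0.742 against 1.46 RPKM. The antagonists *sfrp1a*, *dkk2* and *dkk1b* were lower by similar amounts, with *sfrp1a* at 8.66 against 17.9 RPKM (2.07-fold), *dkk2* at 1.5 against 3.14 (2.10-fold, 1.65 to 2.68) and *dkk1b* at 0.680 against 1.39 (2.04-fold, 1.39 to 3.06). The TCF genes *tcf7* and *tcf7l2*, both 1.51-fold lower than in *hsp70I*:Gal4 controls, were at 0.868 and 0.876 RPKM with Edn1, and *tcf7l2* was not past 1.5-fold against *UAS*:Edn1 controls (1.01 RPKM). Both calls ended with a pseudocount of 0.1, at 1.46-fold lower, and after rescaling by the median ratio, at 1.45-fold lower, and under either setting 5 members were below the control range.

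The 2 Edn1 perturbations have different controls, wild types for the mutants and *hsp70I*:Gal4 for overexpression, and can be read side by side for single genes. *wnt16* was above the control range in *edn1*-/- mutants (2.13 RPKM) and below it with Edn1 overexpression (0.742), with controls from 0.945 to 1.46. *tcf7* was likewise above in mutants (3.41 RPKM) and below with overexpression (0.868), with controls from 1.30 to 2.22, although neither difference was past 1.5-fold after rescaling by the median ratio (1.36-fold higher and 1.45-fold lower). *tcf7l2* and *dkk2* were below the control range in both libraries. *sfrp1a* was below it with overexpression (8.66 RPKM), and in mutants it had 45.6 RPKM, above the highest control (38.9) but 1.17-fold over its own.

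Loss of *jag1b* went with few differences. In *jag1b*-/- mutants 1 of 41 members was higher than in *jag1b*+/+ siblings and 1 lower, while 2.35% of all genes were higher and 4.11% lower. Outside the control range, 0 members were higher and 1 lower, while 0.719% of all genes were higher and 2.53% lower. The member below the range was *sfrp2*, a Wnt-binding antagonist, at 15.1 RPKM in mutants against 26.8 in siblings (1.77-fold lower, 1.63 to 1.93), and all 4 controls had 26.8 RPKM or more. *notum1a* was 2.05-fold higher (1.85 to 2.29) in mutants, at 11.6 against 5.63 RPKM, but the wild types had 12.2 RPKM. Epidermis and epithelium genes summed to 8.03 RPKM in mutants and 62.6 in siblings, of which *krt4* made up 4.99 and 59.5. *epcam* (0.973 and 0.670 RPKM) and *tp63* (1.07 and 0.697) were higher in mutants, and *krt5*, *cldni* and *cdh1* were lower. Blood rows summed to 151 and 324 RPKM, and the part of these markers was not tested. The 9 Frizzled genes had a median fold change of 0.994, and none was past 1.5-fold. Against wild types, a comparison that crosses the division, 6 members were higher and 6 lower in *jag1b*-/- mutants, and the share of all genes was not counted.

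DBZ, which blocks Notch receptor cleavage but may also affect other pathways, went with higher levels of 9 of 41 members (22%) and lower levels of 1. Of all genes, 14.2% were higher and 15.5% lower than in wild types. Outside the control range, 7 members were higher (17.1%) and 1 lower, while 7.14% of all genes were higher and 9.18% lower. This comparison crosses the division between libraries, and it shares its wild-type library with the *edn1*-/- comparison. Values are therefore also given for the *jag1b*+/+ siblings, which lie on the same side as the DBZ library. With the siblings as control, 8 members were higher and 2 lower. With the wild-type library also left out of the control range, a setting chosen after seeing the data, 6 were higher and 1 lower. The share of all genes was counted in neither case. The 4 ear genes summed to 60.4 RPKM with DBZ, of which *mvp* made up 53.3, against 15.6 in siblings and 13.6 in wild types. The 6 epidermis and epithelium genes summed to 70.2 RPKM, against 62.6 and 23.5. Of these sums, *krt4* made up 64.9, 59.5 and 20.6 RPKM. The part of the ear, epidermis and epithelium genes in the differences of the members was not tested.

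A set of 4 Frizzled genes was above the controls with DBZ. *fzd8a* was at 33.5 RPKM, against 20.7 in siblings and 18.1 in wild types, and *fzd10* at 6.05 RPKM, against 3.96 and 2.95; both were past 1.5-fold over either control. *fzd9b* (25.3 RPKM with DBZ, 20.9 in siblings and 14.4 in wild types) and *fzd8b* (2.94, 2.49 and 1.16 RPKM) were past 1.5-fold over wild types only. The same held for *wnt11* (3.35, 2.53 and 0.717 RPKM) and *wnt16* (1.62, 1.12 and 0.945 RPKM). *wnt11r*, at 32.9 RPKM with DBZ, 21.1 in siblings and 24.2 in wild types, was past 1.5-fold over siblings only. Its DBZ level was above each of the other 12 libraries. *dkk2* was at 7.06 RPKM with DBZ, 2.64-fold (2.22 to 3.14) over wild types and 1.84-fold over siblings, and above each of the other 12 libraries. The member below the range was *dkk1b*, the Lrp-binding antagonist, at 0.795 RPKM with DBZ, against 3.78 in siblings and 1.83 in wild types (2.30-fold lower than wild types, 1.62 to 3.31).

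Notch activation by NICD gave the largest single differences. Against *hsp70I*:Gal4 controls, 8 of 41 members were higher (19.5%) and 5 lower (12.2%), while 16.6% of all genes were higher and 7.65% lower. Rescaled by the median ratio of all genes, 6 members were higher and 5 lower than in *hsp70I*:Gal4 controls. Against *UAS*:Edn1 controls 5 members were higher and 8 lower. The share of all genes was counted in neither case. Outside the control range, 4 members were higher and 5 lower, while 12.7% of all genes were higher and 4.87% lower. The *hsp70I*:Gal4 library also served as control for Edn1 overexpression.

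The antagonist genes *sfrp5* and *sfrp1a* had the highest fold changes with NICD among the 41 members. Of the same family, *sfrp2* was at 40.8 RPKM with NICD against 38.1 in *hsp70I*:Gal4 controls. *sfrp1b*, under the filter, was at 0.385 against 0.327 RPKM. *sfrp5* was at 58.7 RPKM with NICD against 7.41 in *hsp70I*:Gal4 controls, 7.91-fold higher, and the remaining 11 libraries had between 4.26 (DBZ) and 11.4 RPKM (20 hpf). *sfrp1a* was at 72.6 against 17.9 RPKM (4.05-fold higher), and the next library was that of *edn1*-/- mutants with 45.6 RPKM. Wild-type *sox10*-only cells, which carried no NICD transgene, had 11.1 RPKM of *sfrp5* and 8.55 of *sfrp1a*. *fzd4*, a receptor gene, was at 23.1 against 10.3 RPKM (2.25-fold, 2.11 to 2.40) and the repressor gene *tcf7l1a* at 46.4 against 29.2 RPKM (1.59-fold); *tcf7l1a* was 1.32-fold over *UAS*:Edn1 controls and 1.48-fold higher after rescaling by the median ratio.

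The 5 members below the control range with NICD were a ligand, a pair of Frizzled receptors and a pair of antagonists. *fzd8b* was at 0.242 RPKM with NICD against 1.62 in *hsp70I*:Gal4 controls (6.67-fold lower, 4.53 to 10.2). *fzd9b* was at 3.08 against 8.01 RPKM (2.60-fold lower, 2.28 to 2.97) and *wnt16* at 0.414 against 1.46 RPKM (3.52-fold lower, 2.50 to 5.06). *notum1a* was at 3.03 against 6.43 RPKM (2.12-fold lower, 1.84 to 2.45) and *dkk1b* at 0.694 against 1.39 RPKM (2.0-fold lower, 1.36 to 2.99). All 5 were past 1.5-fold against *UAS*:Edn1 controls too, over which *notum1a* was 3.27-fold lower.

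Other measures moved in the NICD library. *sox10* was at 73.4 RPKM with NICD against 16.4 in *hsp70I*:Gal4 controls, the neural crest gene *foxd3* at 33.3 against 8.66, and the ear gene *stm* at 20.0 against 2.89. The 5 pigment cell genes summed to 19.4 against 3.48 RPKM and the 9 arch genes to 544 against 836 RPKM. Their part in the differences of the Wnt members was not tested.

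**Figure D4:**
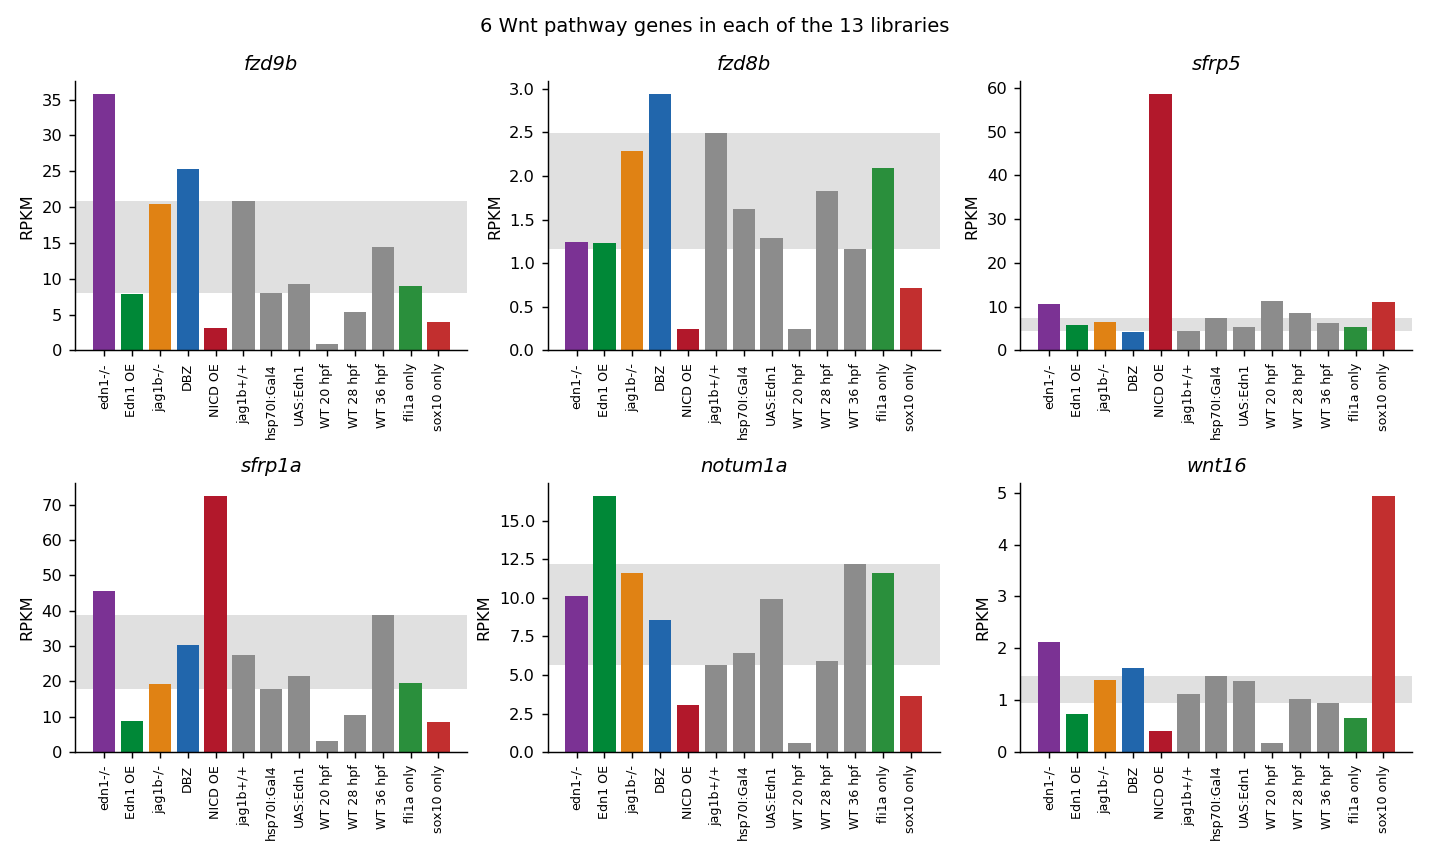
RPKM of 6 members in each of the 13 libraries (1 bar per library, linear axis from 0): the 5 perturbed libraries, 3 controls and wild types at 20, 28 and 36 hpf, then the single-positive populations; the grey band spans the 4 control libraries at 36 hpf. *sfrp5* and *sfrp1a* peak with NICD at 58.7 and 72.6 RPKM, *fzd9b* peaks in *edn1*-/- mutants at 35.8 RPKM, and *wnt16* peaks in *sox10*-only cells at 4.95 RPKM.

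*axin2* and *lef1* are also known as direct targets of canonical Wnt signaling, and neither passed 1.5-fold in any of the 5 perturbations against its own control. *axin2* was at 34.4 RPKM in *edn1*-/- mutants against 24.8 in wild types (1.39-fold), at 18.5 with Edn1 overexpression and 16.1 with NICD against 19.9 in *hsp70I*:Gal4 controls, at 21.6 in *jag1b*-/- mutants against 19.8 in siblings, and at 19.2 with DBZ against 24.8 in wild types. *lef1* had 7.75 to 15.2 RPKM over the perturbed libraries and 11 to 15 RPKM over the controls. Against other controls some differences passed 1.5-fold, on RPKM as deposited and without rescaling. *axin2* in *edn1*-/- mutants was 1.74-fold over *jag1b*+/+ siblings, a comparison that crosses the division between libraries. It was above all 4 controls in these mutants, the highest of which had 26.2 RPKM. In median ratio scaling the *edn1*-/- library had the largest divisor, 1.16, against 0.947 for the siblings. With NICD *axin2* was 1.63-fold lower than in *UAS*:Edn1 controls. Its levels with Edn1 overexpression, DBZ and NICD lay below all 4 controls, the lowest of which had 19.8 RPKM. *lef1* with Edn1 was 1.51-fold lower than in *UAS*:Edn1 controls and below all 4 controls. Of targets outside the name rule, the transcription factor *sp5a* was at 0.606 RPKM with NICD, 0.987 with Edn1 and 1.04 in *jag1b*-/- mutants. The 4 controls had 1.40 to 2.21 RPKM. *sp5l*, under the filter, had 0.0281 to 0.262 RPKM over the perturbed libraries and 0.109 to 0.274 over the controls. The ligase gene *znrf3*, whose product removes Frizzled from the cell surface, was at 10.8 RPKM in *edn1*-/- mutants against 3.38 to 6.52 over the controls. *nkd1*, an inhibitor of the pathway, was at 5.09 RPKM in these mutants against 6.79 to 12.3 over the controls. With NICD *nkd1* was at 11.2 RPKM, past 1.5-fold over *hsp70I*:Gal4 controls (7.05 RPKM) but within the 4 controls.

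Of 76 further pathway names listed, which cover Wnt secretion, Dishevelled, kinases, antagonists, polarity genes and targets, 62 were found, on 67 rows, and 44 rows passed the filter. Of these, 16 were higher in double-positive than in *fli1a*-only cells (all genes 17.8%) and 4 lower (11.7%), and 19 were higher than in *sox10*-only cells (22.8%) and 5 lower (16.4%). At 28 hpf 14 were higher than at 20 hpf (20.3%) and 0 lower (11%), and at 36 hpf 7 were higher than at 28 hpf (15.2%) and 9 lower (24.6%). Outside the control range, 7 were higher (20.2%) and 4 lower (8.14%) in *edn1*-/- mutants, and 1 was higher (2.85%) and 2 lower (4.28%) with Edn1 overexpression. In *jag1b*-/- mutants 0 were higher (0.719%) or lower (2.53%), with DBZ 1 was higher (7.14%) and 3 lower (9.18%), and with NICD 5 were higher (12.7%) and 5 lower (4.87%). The polarity gene *prickle1b* was at 48.2 RPKM in *edn1*-/- mutants, against 21.8 in wild types. The antagonist *sost*, which binds Lrp co-receptors, was at 21.1 RPKM with NICD against 6.59 in *hsp70I*:Gal4 controls, and *sostdc1a*, a relative of *sost*, at 0.297 against 1.46. *wls*, needed for Wnt secretion, was at 72.5 RPKM in wild-type double-positive cells at 36 hpf, against 56.3 in *fli1a*-only and 31.0 in *sox10*-only cells.

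**Figure D5:**
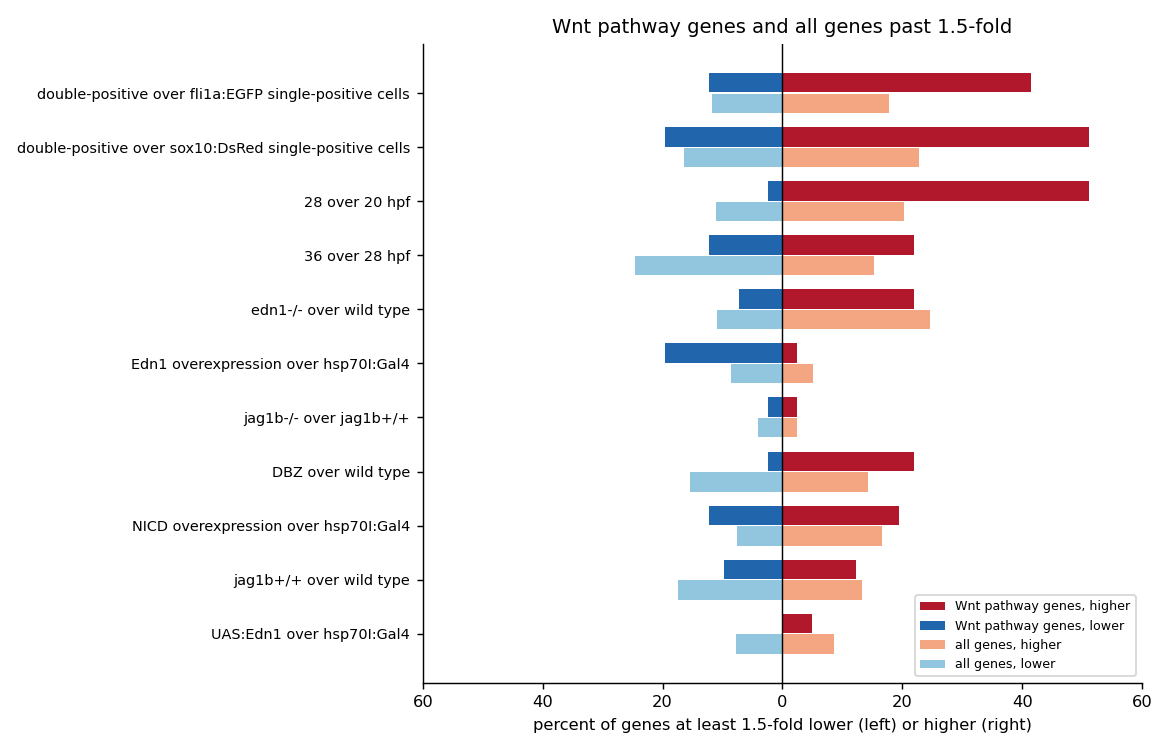
Percent of the 41 members (dark bars) and of all genes tested (light bars) at least 1.5-fold lower (left of 0) or higher (right of 0) in each of the 11 comparisons, 1 library against 1 library. The dark bars exceed the light ones most for higher levels in double-positive cells and at 28 hpf, where they reach 51.2%, and for lower levels with Edn1 overexpression, at 19.5%.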

How the data were processed

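The authors sorted cells from dissociated embryos, made SMARTer cDNA libraries, aligned paired reads to GRCz10 with TopHat 2 and used the E/M quantification of Partek on Ensembl release 80 genes. The deposited values are RPKM for 27911 genes in 13 libraries, and no column was left unmapped. Fold changes are ratios of RPKM as deposited.

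The steps between low RPKM values gave relative depths, and, allowing 0.06 of a read, whole reads for 48 of the 72 members, and the code was tested on simulated data. The 11 comparisons follow the design, with 1 library on each side and no tests. Python 3.11.15 was used with scipy 1.17.1, numpy 2.4.6, matplotlib 3.10.9 and pandas 2.3.3.

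The genes named are the members outside the control range in a perturbation, the 5 largest fold changes in each direction between stages, the arch-enriched members with the 3 highest in each single-positive population, the 3 most abundant members of each role, and direct targets. Other names were chosen after their values were seen. The members and lists were chosen with earlier results of these data known. Alternatives were no filter, a mean RPKM of at least 3, a pseudocount of 0.1, median ratio scaling and another control library. Double-negative cells were not analysed here, and neither coordinates nor sequences are given, as the reference at hand is of another build.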

Additional observations from a re-analysis of the deposited data

How the results depend on the processing

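Counts of members past 1.5-fold in either direction depended most on the filter. Without a filter they were 38 (double-positive against *fli1a*-only cells), 47 (against *sox10*-only cells), 36 (28 against 20 hpf), 31 (36 against 28 hpf), 24 (*edn1*-/-), 21 (Edn1 overexpression), 15 (*jag1b*-/-), 23 (DBZ), 22 (NICD), 24 (*jag1b*+/+ against wild types) and 14 (*UAS*:Edn1 against *hsp70I*:Gal4). With a mean RPKM of at least 3, which left 29 members, they were 13 (28 against 20 hpf), 8 (36 against 28 hpf), 4 (*edn1*-/-), 3 (Edn1 overexpression), 4 (DBZ), 7 (NICD), 3 (*jag1b*+/+ against wild types) and 1 (*UAS*:Edn1 against *hsp70I*:Gal4). Outside the control range the counts were 20 (*edn1*-/-), 14 (Edn1 overexpression), 7 (*jag1b*-/-), 17 (DBZ) and 17 (NICD) without a filter, and 4, 3 and 3 for *edn1*-/-, Edn1 overexpression and DBZ with a mean of at least 3. The share called changed as well as the number tested: in *edn1*-/- mutants 24 of 59 members were called without a filter, 12 of 41 as reported and 4 of 29 with a mean of at least 3. The cause was not tested.

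Median ratio scaling moved 2 of the 16 counts by over 1.5 times, to 1 for *UAS*:Edn1 against *hsp70I*:Gal4 and to 2 (1 higher and 1 lower) outside the control range for *jag1b*-/-, and it left 3 members past 1.5-fold (2 higher and 1 lower) in *jag1b*-/-. Among the fold changes named by the rule, it also ended the calls of *fzd3a*, *fzd8b* and *ctnnb1* between 28 and 36 hpf. The same held for *fzd7a*, *fzd7b* and *tcf7* in *edn1*-/-, *tcf7* and *tcf7l2* with Edn1 overexpression and *tcf7l1a* with NICD. Calls of other members ended too. It left 17 members higher and 1 lower at 28 against 20 hpf, and 14 higher and 6 lower in double-positive against *fli1a*-only cells. With wild types as control, *jag1b*-/- mutants had 12 members past 1.5-fold. Without the wild-type library (chosen after seeing the data), 17 members were outside the controls in *edn1*-/- mutants and 2 in *jag1b*-/- mutants. A pseudocount of 0.1 left all 16 counts within 1.5 times, and ended the calls of *tcf7* and *tcf7l2* with Edn1 overexpression. When *jag1b*+/+ siblings stood for wild types at 36 hpf, *wnt11* and *fzd8b* reversed between 28 and 36 hpf, at 1.05-fold and 1.37-fold. No paired analysis was possible because each condition has 1 library. With 1 library in a group and no recovered reads for 18 of the 41 members, neither spread between embryos nor counting error can be given for those members.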

Other observations

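Names in capitals were outside the rule. *FZD6*, a Frizzled receptor gene listed so in the table, was at 0.658 RPKM in *edn1*-/- mutants, 1.23 in wild types at 36 hpf, 1.14 in the *fli1a*-only and 1.11 in the *sox10*-only library, and at 4.33 to 13.6 RPKM in the other 9 libraries, so that the libraries that stood apart did not overlap the rest. Its value with DBZ was 13.6 RPKM, the highest of the 13. *LGR6*, an R-spondin receptor gene on a row beside the member *lgr6*, was at 2.58 RPKM in *edn1*-/- mutants and 1.42 in wild types, and at 4.25 in *sox10*-only cells, and *lgr6* had 1.51, 0.902 and 4.10 RPKM in the same libraries; reads shared by these rows may have been divided between them.

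Among members under the filter, *dkk3a* was at 1.42 RPKM in *edn1*-/- mutants, against 0.842 in wild types, and *wnt2* at 0.306 RPKM with NICD, against 0.118 in *hsp70I*:Gal4 controls and 2.66 in *sox10*-only cells.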
